A study of Sus scrofa with 2 samples.

Results

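The miR-183 cluster holds 3 microRNAs (miRNAs), miR-182, miR-183 and miR-96, and was followed here in small RNA libraries of pig oocytes. A read was counted as a member when it was 18 to 27 nt long, held nt 2 to 18 of the mature 5p form without a mismatch and began within 2 nt of its 5' end. The members are 3 of 110 miRNAs and miRNA arms searched for in this way. Their reads came from 305 of the 1166705 distinct sequences in the tables, 249 of them seen in the Dicer knockdown library and 224 in the control library. Each group was a single library. The knockdown library came from oocytes treated with siRNA against Dicer at the germinal vesicle stage and then matured in vitro for 42 h, and the control library from oocytes matured in vitro for 42 h. The siRNA protocol is listed under both samples, and the label of genotype tells them apart. Both are given as metaphase II, where an oocyte halts until fertilisation. The labels name neither a control siRNA nor the number of oocytes pooled, and the Dicer transcript cannot be read from small RNA libraries. With 1 library per group, every comparison below is between these libraries and not between the conditions, and no test between groups was possible.

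The members are cut from hairpins of a common primary transcript, first by Drosha in the nucleus and then by Dicer in the cytoplasm. Target choice rests mainly on the seed, nt 2 to 8 of the mature miRNA, which pairs with messenger RNAs. The cluster is best known from sensory organs, where it is abundant in hair cells and photoreceptors, and mutations in the seed of miR-96 cause hearing loss in humans and mice. miR-182 and miR-96 are known to repress the transcription factor FOXO1 in several human tissues. In mouse oocytes, miRNAs are present but known to repress their targets weakly. In the RefSeq annotation of the pig assembly Sscrofa11.1 the genes MIR183, MIR96 and MIR182 follow each other on chromosome 18 with no other annotated gene between them, and UBE2H and NRF1 lie on either side.

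The most abundant deposited sequence of each member is shown because the results turn on its seed and its ends. Letters are those of the cDNA, written 5′ to 3′, and capitals mark the seed. The last sequence is that of miR-1271, an unlinked miRNA with the seed of miR-96.
miR-182: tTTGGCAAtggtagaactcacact
miR-183: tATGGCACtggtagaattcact
miR-96: tTTGGCACtagcacatttttgc
miR-1271: cTTGGCACctagtaagcactc

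These forms are of 24 nt for miR-182 and 22 nt for miR-183 and miR-96. Over their first 22 nt, miR-182 and miR-183 share 18 letters and differ by T2A, A8C, C17T and A22T, counted from 1 at the 5' end with the letter of miR-182 first. miR-182 and miR-96 share 12 of 22 letters, but 6 of the 7 in the seed, where they differ by A8C. miR-183 and miR-96 share 13 of 22 letters and also 6 of 7 in the seed, with A2T, the letter of miR-183 first. In the seed miR-182 and miR-183 share 5 of 7 letters, fewer than either pair with miR-96, but they are close along the rest. By contrast, miR-96 is close to both in the seed and mostly elsewhere unlike them.

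miR-182 was very abundant, and its partners were far scarcer. miR-182 had 197087 reads in the knockdown library and 220511 in the control library, of 11982925 and 11836160 reads in all. In RPM, the usual scaling of reads to the library total, its level was 16447 RPM (exact Poisson interval 16375 to 16520.1) in the knockdown library and 18630.3 RPM (18553 to 18708) in the control library. This and every other interval below is a 95% interval for counting error alone, because amplified reads with no molecular tag can stem from the same molecule. The ratio of knockdown to control was 0.883 (exact conditional interval 0.877 to 0.888).

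miR-183 had 783 reads in the knockdown library and 1088 in the control library. That is 65.3 RPM (60.8 to 70.1) and 91.9 RPM (86.5 to 97.6), a ratio of 0.711 (0.648 to 0.780). miR-96, the member whose seed is mutated in inherited deafness, had 54 reads in the knockdown library and 84 in the control library. Its level was 4.51 RPM (3.39 to 5.88) and 7.10 RPM (5.66 to 8.79), a ratio of 0.635 (0.443 to 0.904). For each member the knockdown library was the lower of the pair, and the interval of each ratio lay below 1. In pooled oocytes fewer cells with a miRNA and less of it per cell cannot be told apart.

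**Figure D1:**
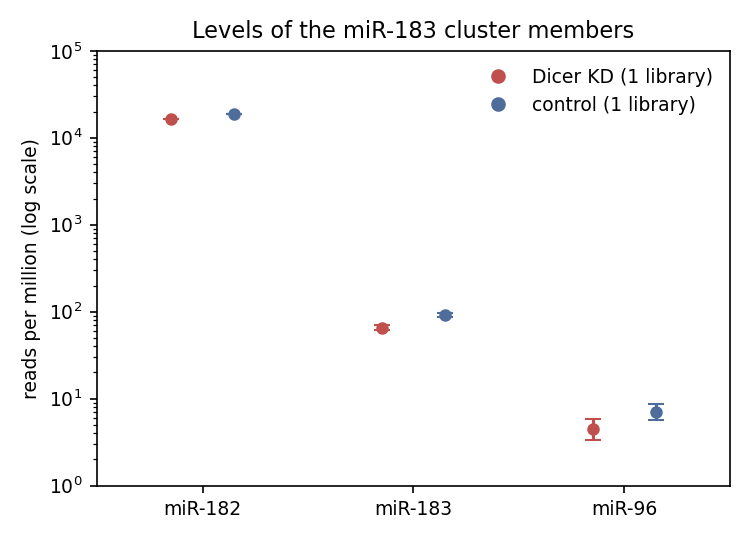
Level of each member in RPM on a log axis, with exact Poisson intervals of counting error; there is 1 library per group. miR-182 stands at 16447 RPM in the knockdown library and 18630.3 RPM in the control library, miR-183 at 65.3 and 91.9 RPM and miR-96 at 4.51 and 7.10 RPM, so that the gap between members is much wider than that between libraries.

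Read against other miRNAs, none of the members passed the 2-fold rule, which asks for 100 reads or more over the 2 libraries and for a ratio that reaches 2 or drops to 0.5. Of the 63 miRNAs with at least 100 reads, 17 (27%) did, with 16 (25.4%) higher in the knockdown library and 1 (1.59%) lower. A ratio below 1 was found for 24 of the 63 (38.1%) and for 3 of 3 members. Their intervals lay wholly below 1, which held for 11 of the 63 (17.5%). The median log2 ratio of the 63 was 0.25, against -0.18 for miR-182, -0.49 for miR-183 and -0.66 for miR-96. Ranked from the lowest ratio, miR-96 stood at rank 3, miR-183 at rank 6 and miR-182 at rank 13 of the 63. By reads, miR-182 ranked 2, miR-183 27 and miR-96 60.

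**Figure D2:**
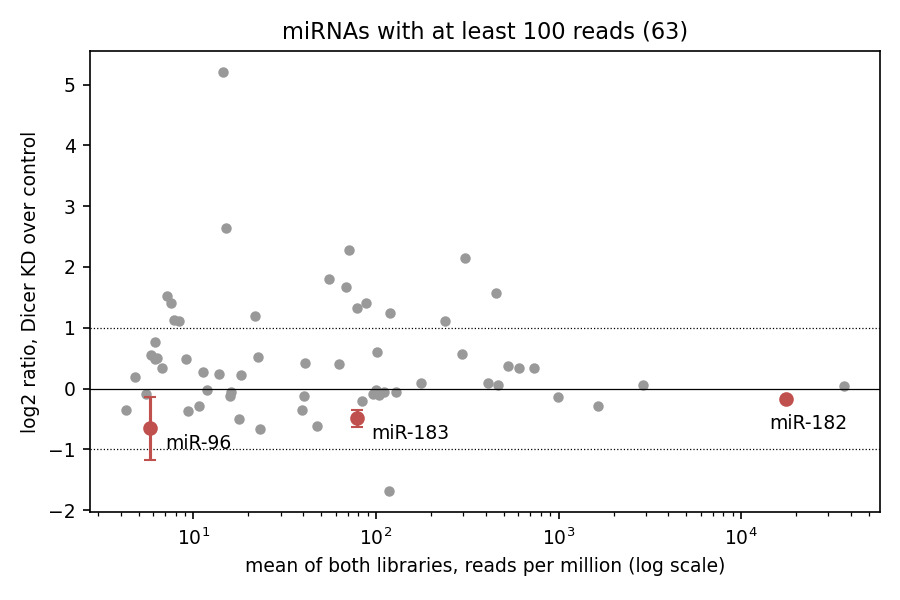
Log2 ratio of knockdown over control against the mean level in RPM (log axis) for the 63 miRNAs with at least 100 reads; red points are the cluster members with their counting intervals, grey points the other miRNAs, dotted lines a 2-fold difference. The members lie below 0, at -0.18, -0.49 and -0.66, across the whole range of levels.

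As a share of all reads matched to the miRNAs listed here, miR-182 held 24.8% in the knockdown library and 28.5% in the control library, so what it is set against matters. The ratio of all other listed miRNAs, summed, was 1.06 (1.06 to 1.07). Relative to them the ratio of miR-182 was 0.830 (0.825 to 0.835). miR-10b, the most abundant listed miRNA and encoded within a Hox cluster, was at 37129 RPM in the knockdown library and 35955 RPM in the control library. Its ratio was 1.03 (1.03 to 1.04). miR-148a was at 2955 and 2841 RPM, with a ratio of 1.04 (1.02 to 1.06), and let-7a with let-7c at 426 and 398 RPM, with 1.07 (1.03 to 1.11). These 3 were slightly higher in the knockdown library, but other abundant miRNAs were lower there, as miR-182 was. miR-92a had 953 RPM in the knockdown library and 1044 RPM in the control library, a ratio of 0.912, and miR-205, described below, 0.816.

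Among the 30 other miRNAs with at least 1000 reads, miR-16, miR-92a and let-7i had the log2 ratios nearest to that of the cluster total, which was -0.18. Their ratios were 0.866, 0.912 and 0.925, and the absolute differences in log2 ratio 0.03, 0.05 and 0.07. This likeness rests on 2 libraries.

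Other epithelial and sensory miRNAs, with which the cluster is often found in animals, went in mixed directions. Of the 7 epithelial miRNAs, 2 had at least 100 reads and 0 of these differed by 2-fold. miR-205, a miRNA of stratified epithelia, was at 1484 RPM in the knockdown library and 1820.1 RPM in the control library, a ratio of 0.816 (0.799 to 0.832). miR-141, of the miR-200 family, had 98 and 125 reads, a ratio of 0.774 (0.588 to 1.02). miR-200a had 3 and 3 reads, miR-200b 5 and 3, miR-200c 7 and 7, and miR-429 none, while miR-203, a skin miRNA, had 44 and 6, a ratio of 7.24 (3.08 to 20.8). Of the 5 sensory and neural miRNAs, miR-204, known from the eye, had 115 and 139 reads and miR-9, of neural progenitors, 64 and 67. miR-7 had 0 and 2 reads, and no read held the motifs of miR-124 or miR-211. None of these sensory and neural miRNAs thus had more than 139 reads in a library, far below miR-182.

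The summed marker miRNAs of other cell types were higher in the knockdown library, and each sum came mostly from a single miRNA. The summed level of the stromal list was 126 RPM in the knockdown library and 28.9 RPM in the control library, with reads for 4 of 5 miRNAs and none for miR-214. miR-143, of smooth muscle and fibroblasts, had 1411 and 286 of these reads. miR-199a-3p had 93 and 54, a ratio of 1.70 (1.20 to 2.43). The cluster partner of miR-143, miR-145, had 4 and 0, and the endothelial miR-126 had 3 and 2. The granulosa list summed to 608 and 472 RPM, with reads for 5 of 5. miR-21, which many tissues express, had 7180 and 5476 of them, and the gonadal miR-202 had 32 and 6. Of the others on this list, miR-383 was lower in the knockdown library, with 27 and 47 reads, a ratio of 0.567 (0.340 to 0.930). miR-132 had 45 and 57 reads, a ratio of 0.780 (0.516 to 1.17). miR-212 had 4 and 5, a ratio of 0.790 (0.157 to 3.67), so both were within counting error of no difference. The blood list summed to 47.8 and 35.7 RPM, with reads for 3 of 5 and none for miR-144 or miR-223. miR-486 had 559 and 413 of them, and miR-451, the defining miRNA of red cells, had 5 and 7. Their part in the lower levels of the cluster members was not tested.

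The balance of the members was steep. miR-182 took 99.58% of the cluster's reads (exact binomial interval 99.55 to 99.61%) in the knockdown library and 99.47% (99.44 to 99.50%) in the control library. miR-183 took 0.396% (0.368 to 0.424%) and 0.491% (0.462 to 0.521%), and miR-96 0.0273% (0.0205 to 0.0356%) and 0.0379% (0.0302 to 0.0469%). There were 252 reads of miR-182 for each read of miR-183 in the knockdown library and 203 in the control library. Per 1000 reads of miR-182, the knockdown library thus held 3.97 reads of miR-183 and the control library 4.93, a ratio of these ratios of 0.805 (0.733 to 0.884). For miR-96 against miR-182 it was 0.719 (0.501 to 1.02), and for miR-96 against miR-183 0.893 (0.615 to 1.29). The balance between miR-183 and miR-182 therefore differed between these libraries by more than counting error, and for both pairs with miR-96 no difference could be detected at these read numbers. Ligation and PCR favour some sequences, so read ratios between members are not molar ratios.

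Seeds shared with other RNAs set what these reads could stand for. Of the reads of 18 to 27 nt with the seed of miR-182 at nt 2 to 8, 99.3% in the knockdown library and 99.5% in the control library were miR-182 itself. For the seed of miR-96 this share was 26.3% of 205 reads and 36.7% of 229 reads. miR-1271 has that seed as well, and had 83 reads in the knockdown library and 56 in the control library, a ratio of 1.46 (1.03 to 2.09). It thus exceeded miR-96 in the knockdown library and not in the control library. The motif for miR-1271 was chosen after its reads had been seen. For the seed of miR-183 the member's share was 17.9% of 3409 reads and 17.4% of 4916 reads, the rest being other sequences with these letters at nt 2 to 8.

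The other arm of the hairpins was almost absent. With motifs known from the human 3p arms, 2 reads in the knockdown library and 4 in the control library were found for miR-183-3p. For miR-182-3p and miR-96-3p there were 0 in both, which allows up to 3 reads per library, worth 0.250 RPM in the knockdown library and 0.253 RPM in the control library. Allowing 1 mismatch in the motifs gave the same counts. Pig 3p arms that differ more from the human ones would be missed. No read held the reverse complement of nt 2 to 18 of any member.

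Read length set the members apart. Reads of 24 nt were the largest class of miR-182, with 52.5% of its reads in the knockdown library and 52.4% in the control library. Those of 23 nt followed with 17.96% and 19.2%. Reads of 21 nt had 8.01% and 8.35%, and those of 25 nt 8.07% and 6.88%. miR-183 was shorter and broader, with 37.7% and 34.6% of its reads at 22 nt and 25.4% and 25.5% at 23 nt. miR-96 was confined to 21 to 24 nt in these reads. It had 18 reads of 22 nt in the knockdown library and 42 in the control library, and 24 and 18 of 23 nt.

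The ratio of the libraries varied with the length of miR-182. Reads of 23 nt had a ratio of 0.825 (0.814 to 0.837) and those of 24 nt 0.885 (0.877 to 0.892). At 25 nt the ratio was 1.04 (1.01 to 1.06), with 15896 reads in the knockdown library and 15163 in the control library, and at 27 nt 1.02 (0.941 to 1.10). Reads of 18 nt had 0.792 (0.679 to 0.924). miR-182 was therefore lower in the knockdown library at each length from 18 to 24 nt and at 26 nt, and not at 25 and 27 nt.

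**Figure D3:**
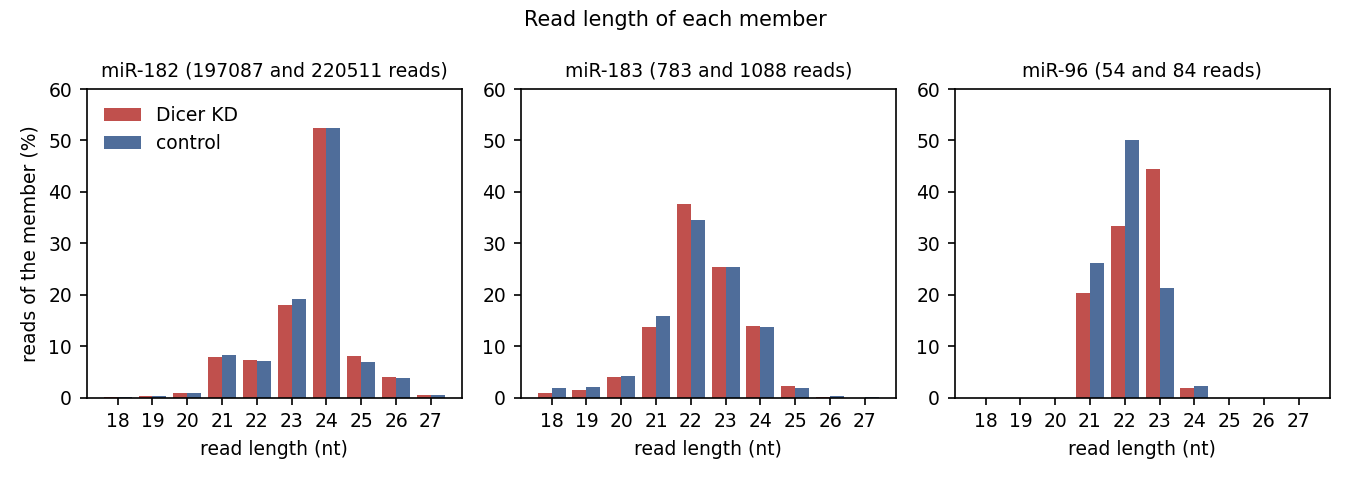
Share of each member's reads at each length from 18 to 27 nt, knockdown (red) and control (blue). miR-182 peaks at 24 nt with 52.5% and 52.4% of its reads, miR-183 at 22 nt with 37.7% and 34.6%, and miR-96, on 54 and 84 reads, at 23 nt in the knockdown library and 22 nt in the control library.

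The 5' end, which fixes the seed, was set almost without error in miR-182 and not in miR-183. Of the miR-182 reads, 99.96% (99.95 to 99.97%) in the knockdown library and 99.96% (99.96 to 99.97%) in the control library began at nt 1 of the form. Starts 1 nt later made up 0.0355% and 0.0295%, on 70 and 65 reads. Starts upstream had 3 reads in the knockdown library and 13 in the control library. All 54 and 84 reads of miR-96 began at nt 1, which at this depth allows up to 6.60% and 4.30% of other starts by the exact interval.

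miR-183 began 1 nt later in 21.6% of its reads (18.7 to 24.6%) in the knockdown library and 20.96% (18.6 to 23.5%) in the control library. On 169 and 228 reads, these shares were within counting error of each other. The most abundant late form had 64 reads in the knockdown library and 79 in the control library, and its seed is given in capitals because it is no longer that of miR-183.
miR-183, start at nt 2: aTGGCACTggtagaattcactg

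With this start the seed is TGGCACT in place of ATGGCAC. Starts 1 nt upstream, with G as the added letter, had 3 and 4 reads, and starts 2 nt upstream 2 and 0. Over the 32 miRNAs that reach 1000 reads, the median share of late starts was 0.0626% in the knockdown library and 0.0614% in the control library. miR-183 ranked 2 in the knockdown library and 3 in the control library by that share. miR-140-3p, known for a variable 5' end, had 87.5% and 85.3%, and miR-10a 9.64% and 23.4%. miR-10b followed with 9.15% and 10.2%. These 3 miRNAs were named after their values had been seen.

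**Figure D4:**
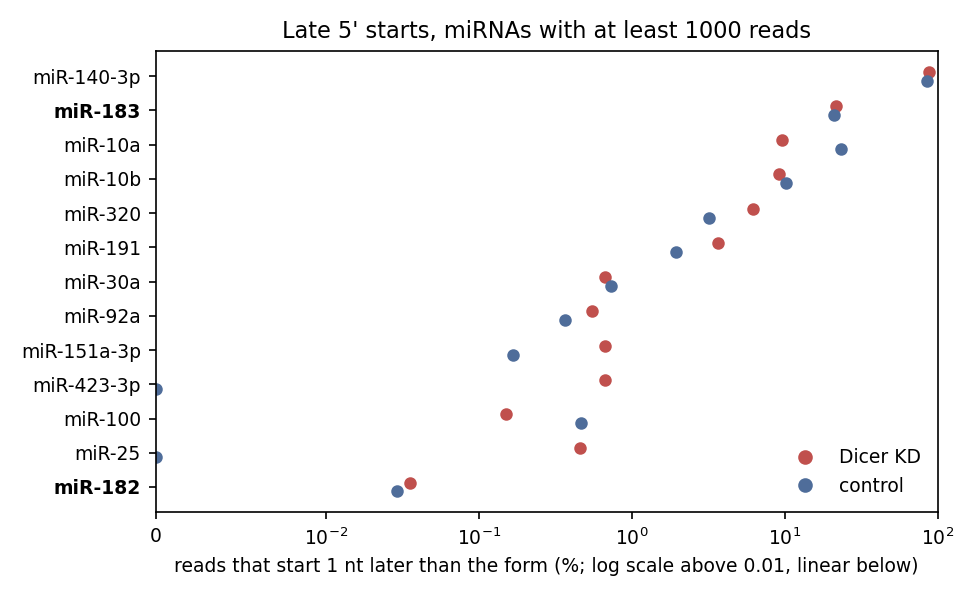
Share of reads that start 1 nt later than the form (log scale above 0.01%, linear below) for the 12 highest of the 32 miRNAs with at least 1000 reads, with miR-182 added; red is knockdown, blue control. miR-183 lies at 21.6% and 20.96%, and miR-182 at 0.0355% and 0.0295%; miR-96 has too few reads to be drawn.

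The late start of miR-183 went with longer 3' ends. Of the late reads, 66.9% (59.2 to 73.9%) in the knockdown library and 61.4% (54.8 to 67.8%) in the control library ran past nt 22, against 45.3% (41.3 to 49.4%) and 45.1% (41.7 to 48.5%) of reads that began at nt 1. The intervals of the 2 start classes do not overlap in either library. A late form that stops at nt 18 falls below the length limit and is not counted. Counted stops at nt 18 made up 0.766% of miR-183 reads in the knockdown library and 1.84% in the control library. The part of this limit in the difference was not tested.

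The 3' end varied in each member. miR-182 stopped at nt 24 in 51.1% of reads in the knockdown library and 51.2% in the control library. It stopped at nt 23 in 16.8% and 18.3%, at nt 22 in 7.16% and 7.08%, at nt 21 in 7.90% and 8.25%, and at nt 20 in 0.900% and 0.958%. A stop at nt 21 was thus about as common as one at nt 22, and shorter forms were rare. Together with forms that end early in other letters, ends before nt 24 accounted for 36.2% (36.0 to 36.5%) and 37.5% (37.3 to 37.7%), and the ratio of these shares was 0.966 (0.956 to 0.976). Longer forms made up 12.7% (12.5 to 12.8%) and 11.3% (11.1 to 11.4%). As shares of miR-182 reads, early ends were therefore lower and longer forms higher in the knockdown library, by small amounts that exceed counting error. In RPM, early ends had a ratio of 0.853 (0.844 to 0.861). Longer forms had 24977 and 24861 reads, an RPM ratio of 0.992 (0.975 to 1.01), within counting error of 1. Among the 30 other miRNAs with at least 1000 reads, the share of early ends was higher in the knockdown library for 18 and lower for 12, and that of longer forms was higher for 10 and lower for 20.

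miR-183 often ran past the end of its form. Ends past nt 22 made up 49.7% (46.1 to 53.2%) of its reads in the knockdown library and 48.3% (45.3 to 51.4%) in the control library. Only 16.3% (13.8 to 19.1%) and 19.1% (16.8 to 21.6%) ended early. Over the 32 miRNAs that reach 1000 reads, the median share of longer forms was 6.52% and 8.34%, and miR-183 ranked 3 from the highest in both libraries. miR-96 had 25 longer reads in the knockdown library and 18 in the control library, 46.3% (32.6 to 60.4%) and 21.4% (13.2 to 31.7%) of its reads. Most of these were its 23-nt form ending in T, with 23 and 15 reads. The 22-nt form had 16 and 33, so in the knockdown library the 23-nt form was the more abundant. What counts as longer in miR-96 therefore rests on the form chosen.

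**Figure D5:**
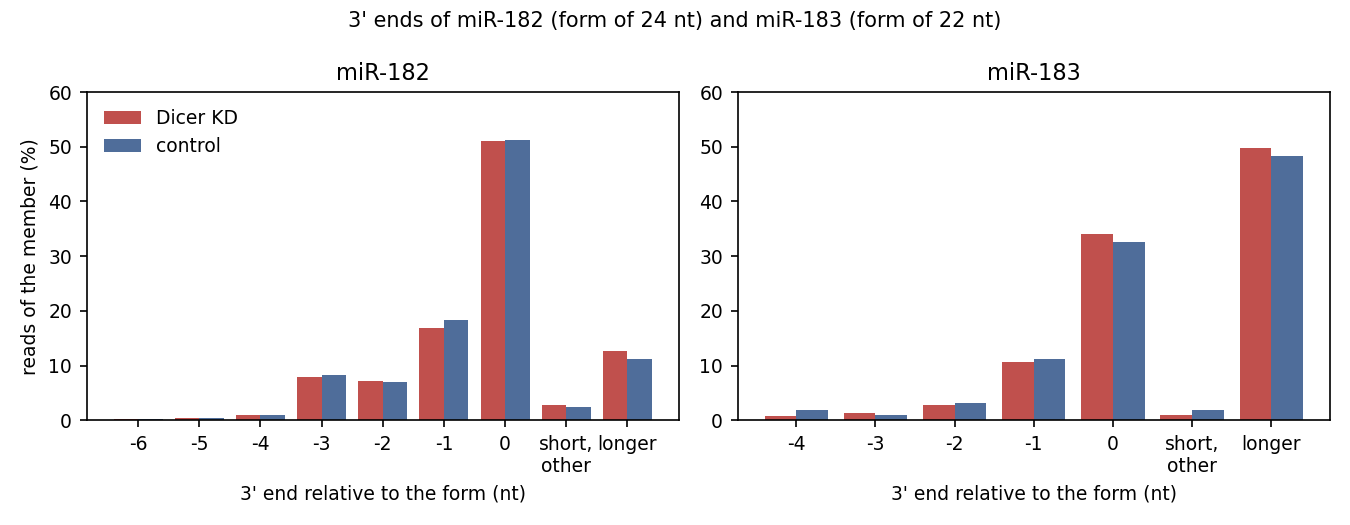
Share of reads of miR-182 and miR-183 by 3' end, as nt before the end of the form (0 is the form's own end), early ends in other letters, and longer forms; red is knockdown, blue control. miR-182 has 51.1% and 51.2% at its own end and 12.7% and 11.3% longer, and miR-183 has 49.7% and 48.3% longer.

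Longer reads show which letters follow the form. The most abundant read of 28 to 38 nt that held all of miR-182 is printed with the added letters in capitals, since longer forms are sorted by these letters below. No hairpin sequence was used here, so whether the genome encodes these letters was not checked. It had 296 reads in the knockdown library and 350 in the control library. The matching read of miR-183 had 3 and 1, so the letters used for miR-183 rest on 4 reads.
miR-182, 32 nt: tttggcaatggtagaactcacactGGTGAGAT
miR-183, 28 nt: tatggcactggtagaattcactGTGAAC

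Longer forms of miR-182 were split by these letters. Those that only continue them made up 73.5% (73.0 to 74.1%) of longer reads in the knockdown library and 68.1% (67.6 to 68.7%) in the control library, with a ratio of 1.07 (1.05 to 1.09) in RPM. Those that end in A where the long read has another letter accounted for 23.8% (23.3 to 24.3%) and 29.9% (29.3 to 30.4%), with an RPM ratio of 0.791 (0.764 to 0.818). By letters, a single G had 14678 reads in the knockdown library and 13769 in the control library, and GG had 3166 and 2715. A single A had 828 and 1066 reads, and GA 4361 and 5570. Forms that continue were thus higher in the knockdown library and forms that end in such an A lower. The full form followed by a single A, a smaller class without GA, made up 0.420% of miR-182 reads in the knockdown library and 0.483% in the control library. Among the 30 other miRNAs, the share of this smaller class was lower in the knockdown library for 19 and higher for 8. With early ends counted as well, a single A made up 2.21% and 2.22% of miR-182 reads. In miR-183 the forms that continue made up 74.0% (69.4 to 78.3%) and 76.0% (72.2 to 79.6%) of longer reads, and those ending in A 24.9% (20.7 to 29.5%) and 23.2% (19.7 to 27.04%), within counting error of each other.

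Early ends of miR-182 that carry a single other letter carried mostly A. A was that letter in 88.5% of 3982 such reads in the knockdown library and 90.9% of 4205 in the control library. The 22-nt form followed by A had 1724 and 1727 reads, a ratio of 0.986 (0.922 to 1.05), and the 23-nt form followed by A 1691 and 1975, a ratio of 0.846 (0.792 to 0.903). An A after nt 19 or nt 21 cannot be told from the form itself, whose next letter is A. The letters TGG that end the 26-nt form are also the first letters of the 3' adapter, so a partly trimmed adapter after nt 23 would look alike. Among the 30 other miRNAs with at least 1000 reads, the full form followed by TGG had 0% of reads in each. Followed by TG, it had at most 0.223% in the knockdown library and 0.112% in the control library.

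Single forms of miR-182 differed in their ratio. Its 5 most abundant forms held 90.4% of its reads in the knockdown library and 91.0% in the control library. The 24-nt form had 100604 and 112831 reads, a ratio of 0.881 (0.873 to 0.888). The 23-nt form had 33184 and 40353 reads, with 0.812 (0.801 to 0.824), the 21-nt form 15553 and 18182, with 0.845 (0.827 to 0.863), and the 22-nt form 14094 and 15604, with 0.892 (0.872 to 0.913). The 25-nt form, which adds G, had 14663 and 13758, with 1.05 (1.03 to 1.08). Of these 5, that form alone was higher in the knockdown library. Of the 29 forms of miR-182 with at least 100 reads, 19 had a ratio below 1, and the median ratio was 0.938. Over all sequences of 18 to 27 nt with at least 100 reads, 57.5% had a ratio below 1.

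For miR-183, its 22-nt form had 226 and 290 reads, a ratio of 0.770 (0.644 to 0.919), and its 23-nt form with an added G 162 and 232, with 0.690 (0.561 to 0.847). The 21-nt form had 70 and 103 reads. All 6 of its forms with at least 100 reads had a ratio below 1, from 0.671 to 0.800, against the same 57.5% over all sequences. Of the forms of miR-96, that of 22 nt had 16 and 33 reads, a ratio of 0.479 (0.246 to 0.895). Its 23-nt form, with 23 and 15 reads, had 1.51 (0.757 to 3.12).

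Of the 29 forms of miR-182 with at least 100 reads, 3 passed the 2-fold rule and 26 did not. Over all sequences of 18 to 27 nt with at least 100 reads, 1295 of 11539 (11.2%) passed it, a share close to that of these forms. All 3 were higher in the knockdown library and hold A at nt 21 (C21A). The 24-nt one is shown with that A in capitals.
miR-182, C21A: tttggcaatggtagaactcaAact

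It had 294 reads in the knockdown library and 8 in the control library, a ratio of 36.3 (18.2 to 84.9). The 23-nt one had 148 and 3 reads, a ratio of 48.7 (16.4 to 239), and the 22-nt one 69 and 31, a ratio of 2.20 (1.42 to 3.48). The 22-nt one can be read as well as a 20-nt form with AA added. All 20 forms with A at nt 21 and at least 1 more letter together held 0.305% of miR-182 reads in the knockdown library and 0.0277% in the control library. The same substitution at the same read position was looked for in the other sequences among the 400 most abundant of the tables. Of the 69 with C at nt 21, 64 had it at a higher rate in the knockdown library, with a median of 0.0962% of the unchanged sequence against 0.00493% in the control library. In miR-182 the rate was 0.292% of the unchanged 24-nt form in the knockdown library and 0.00709% in the control library, so its knockdown rate lay above that median. The substitution was therefore more frequent in the knockdown library in unrelated sequences as well, and the part of this in the ratios of the miR-182 forms was not tested. Without these forms, a setting chosen after seeing the data, early ends in other letters made up 2.59% of miR-182 reads in the knockdown library and 2.33% in the control library, against 2.89% and 2.36% with them.

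Single substitutions over nt 2 to 18 of miR-182 were rare. Of the reads that begin at nt 1 and are at most 1 letter from miR-182 over nt 2 to 18, 0.756% (0.718 to 0.795%) in the knockdown library and 0.593% (0.561 to 0.626%) in the control library held a single substitution. The most frequent over both libraries was A7G, within the seed, with 58 reads in the knockdown library and 245 in the control library, a ratio of 0.234 (0.173 to 0.312). In the 24-nt form it had 34 and 117 reads, 0.0338% and 0.104% of the unchanged form. Among the 120 other abundant sequences with A at nt 7, the median rate of this substitution was 0.0298% in the knockdown library and 0.112% in the control library. At nt 7, miR-182 thus had nearly the median rate of unrelated sequences in each library. Other substitutions went the other way, such as T18A with 84 and 27 reads and T18G with 72 and 2, named after their values had been seen. Of the 131 other abundant sequences with T at nt 18, the rate was higher in the knockdown library in 104 for T18A and 103 for T18G. The part of this in the higher total of miR-182 was not tested.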

How the data were processed

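Per the labels' protocols, small RNA of total oocyte RNA was ligated to adapters, reverse transcribed, amplified and sequenced on an Illumina instrument. Bowtie2 is named, per the submitters' processing notes, and no version, build or trimming setting is named in the sources used here. The deposited tables list each distinct sequence with its raw read count, not normalized, for 11982925 knockdown and 11836160 control reads.

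No miRNA sequences were at hand. The form of each of 110 miRNAs and arms was the most abundant deposited sequence of 20 to 25 nt that held short motifs of the conserved miRNA, nt 2 to 8 and nt 12 to 18, written from background knowledge, with 1 more letter where relatives share both. Of these, 97 had a form. Pig-specific miRNAs are not counted, and relatives with the same nt 2 to 18 are counted together. Ends were read against this form. No build is named for the tables, so no coordinates are given.

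RPM, exact Poisson, binomial and conditional intervals and the ratios were computed with Python 3.11.15, numpy 2.4.6 and scipy 1.17.1, and figures with matplotlib 3.10.9. No p-value was computed. The 2-fold rule was tested on simulated data. These held Poisson counting error alone, so they say nothing of the spread between libraries. Named were the members, their 5 most abundant forms, forms past the 2-fold rule, fixed lists of other miRNAs and the 3 most alike. The members and lists were chosen with earlier results of these data known. Alternatives covered the reads set against, the match, starts, lengths and rare sequences.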

Additional observations from a re-analysis of the deposited data

How the results depend on the processing

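Of 53 alternative values, 49 stayed within the interval of the value reported, or for the count of miRNAs past 2-fold within 1.5 times of it, and none changed direction where that interval excluded 1. Many of these values had little room to move. The cluster total is nearly all miR-182 and repeats its values, and the shares of miR-182 in the cluster and in starts at nt 1 are almost complete. For miR-96 the interval itself is wide. Set against reads of 18 to 27 nt, the ratio of knockdown to control was 0.904 for miR-182 and 0.903 for the cluster total. Set against the other miRNAs it was 0.830 and 0.829. The count past 2-fold was 24 of 77 miRNAs with at least 30 reads and 22 of 63 at 1.5-fold. No paired analysis was possible because each group has 1 library, and no library could be left out. Leaving out the forms of miR-182 with A at nt 21, chosen after seeing the data, gave a ratio of shares for early ends in other letters of 1.11, against 1.22 with them. Counting error limits miR-96 most, with 54 and 84 reads. Replicate spread is unknown.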

Other observations

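Reads longer than 27 nt that held miR-182 had 1037 counts in the knockdown library and 1286 in the control library, a ratio of 0.797 (0.733 to 0.865). Of these, 402 and 503 held the first 8 letters of the 3' adapter. The reads of 28 to 38 nt without them had 607 and 750 counts, a ratio of 0.799 (0.717 to 0.891). For miR-183 there were 4 and 4 reads longer than 27 nt, and for miR-96 none.

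Reads of miR-182 that begin past the counted starts were few. Those beginning at nt 3 had 4 reads in the knockdown library and 3 in the control library, those at nt 4 had 14 and 26, and those at nt 5 had 32 and 61. The last of these had a ratio of 0.518 (0.327 to 0.807).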
